A study of Mus musculus with 6 samples.

Results

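Mouse embryonic stem cells taken at day 3 of SFEBq, a neural induction method in which dissociated cells quickly reaggregate and float in medium without serum, were compared with the cells before and the cells after that stage. A gene was taken as specific to day 3 when the mean of the day 3 arrays differed from the average of the other group means (limma, adjusted p under 0.05 over all 18194 genes tested) and when day 3 lay on the same side of both other groups within each replicate set. By this rule 97 genes were higher at day 3 than in both other groups and 52 were lower, which is 0.533% and 0.286% of the genes tested.

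All 6 samples came from OLV2-1, a single cell line in which the fluorescent protein Venus was knocked into the Oct4 (Pou5f1) locus, and each of the 3 groups held 2 Affymetrix expression arrays. The ESC arrays held undifferentiated Venus-positive cells, which the protocol for the sort also describes as positive for CD31, the product of Pecam1. The day 3 arrays, labelled EpiSC-like for epiblast stem cell-like, held Venus-positive, Pecam1-negative cells from SFEBq day 3 aggregates. The Day7_Oct4-Venus+ arrays held Venus-positive cells from SFEBq day 7 aggregates, with no Pecam1 gate named. Day 3 was therefore the sole group selected against Pecam1, and the stage and this gate cannot be told apart. ESC and day 3 cells also went through trypsin, 1 hour in medium and antibody staining, while the day 7 protocol names EDTA alone. Separate cultures are not stated for the replicates, and the p-values then reflect just the spread among these 6 arrays, which may be technical. In bulk samples fewer cells of a type and less RNA per cell cannot be told apart.

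Pluripotent cells pass from a naive state, held by LIF and Stat3 signalling and marked by factors such as Klf4, Tfcp2l1 and Esrrb, through a formative state marked by Fgf5 and Pou3f1 (Oct6) before they take up a germ layer fate. Retinoic acid, made from vitamin A and sensed by nuclear receptors, is a main signal that gives neural cells a hindbrain or spinal identity, and it switches on Hox genes at the 3′ end of each cluster. Gbx2 marks the hindbrain side of the midbrain-hindbrain boundary and is also active in naive stem cells.

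Signals are linear intensities, whose trimmed mean in the deposited values was 500 on every array, and the median signal of an array lay between 63.99 and 76.32. Replicate arrays correlated with r between 0.976 and 0.978 over genes on log2(signal + 16), and differences below are on that scale, which understates the change of dim genes. The replicate 1 arrays had a highest signal of 30793 to 36841 and the replicate 2 arrays of 63296 to 66643, so the replicate sets differ in signal range. The mean of the hybridization controls also differed, at 6549.5 to 8287 on the replicate 1 arrays and 13262 to 16095.5 on the replicate 2 arrays. Poly-A controls had means of 73.3 and 76.9 on the second ESC and second day 3 arrays, and of 591.3 to 826.3 on the others. The log2 ratio of 3′ to 5′ control signal for actin was 0.46 to 0.58 in ESC and at day 3, and 0.71 and 0.94 at day 7. For Gapdh it was -0.36 to 0.01 over all arrays. Pou5f1, the gene that carries the reporter, had signals of 7927 and 14055 in ESC, 6244 and 9923 at day 3 and 6533 and 9062 at day 7, and its groups overlapped. Its day 3 difference was -0.19 ± 0.33 (SE; adjusted p = 0.874), and the direction turned when the second ESC array or the first day 3 array was left out. Pecam1, the gate gene, gave 728 and 343 in ESC, 401 and 177 at day 3 and 767 and 488 at day 7. Pecam1 was lowest at day 3 within each replicate set, with a difference of -1.01 ± 0.44 that did not pass the test (adjusted p = 0.371).

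Most called genes differed from both other groups by at least 1 on the log2 scale. For the 97 higher genes the distance from day 3 to the nearer of the other groups had a median of 1.56 (range 0.22 to 3.50), and 84 of them stood at least 1 above both. For the 52 lower genes the same distance had a median of -1.44, and 43 stood at least 1 below both. The nearer group was day 7 for 76 of the 97 higher and 37 of the 52 lower genes. Signals of the day 3 arrays did not overlap those of any other array for 97 of 97 higher genes and for 51 of 52 lower genes, the exception being Ndrg1. Over all genes tested, 2049 stood above and 1509 below every other array at day 3 without overlap, and the rule itself favours such genes.

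These calls rest on all 6 arrays together. With any 1 of the 6 arrays left out, limma called 0 genes in either direction (smallest adjusted p between 0.0612 and 0.263), while between 900 and 1279 higher genes and between 683 and 1126 lower genes met the pattern at an unadjusted p under 0.05. In each of those fits all 97 and all 52 kept their direction, but their choice on these same arrays all but fixes that. With the replicate number as a block, limma also called 0 higher and 0 lower genes (smallest adjusted p 0.0676). At the threshold, Pim2 lay just inside (adjusted p = 0.0492) and Lrp2 just outside (adjusted p = 0.0502).

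**Figure D1:**
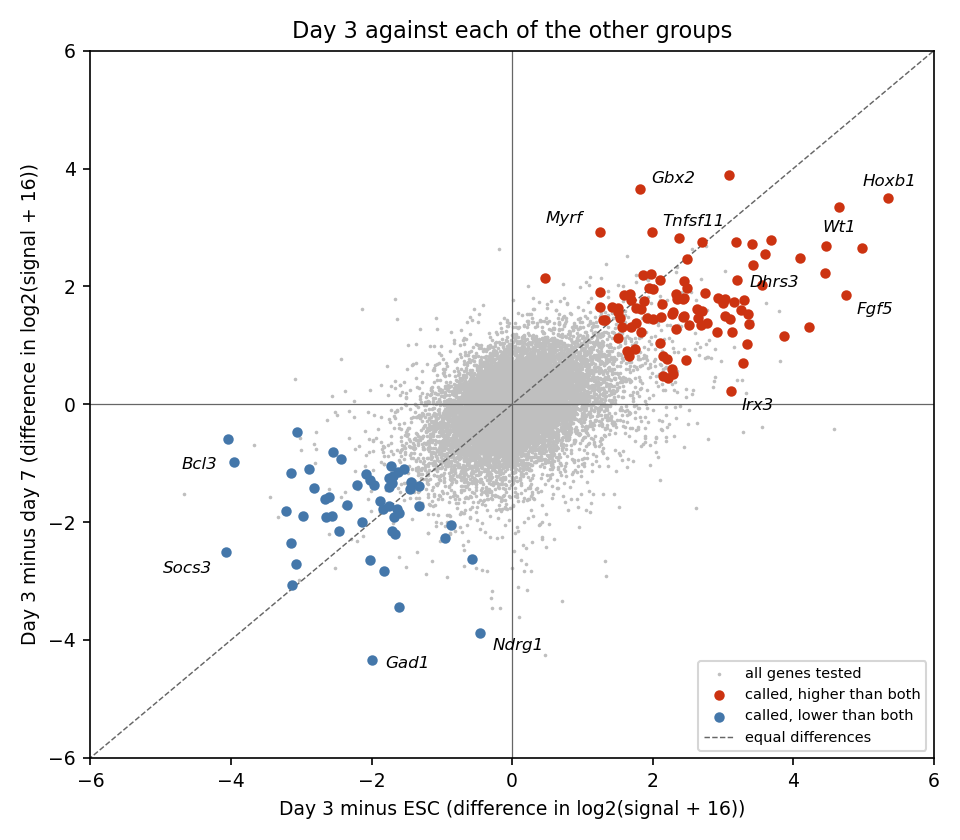
Each point is 1 gene, with the difference between day 3 and ESC on the x axis and between day 3 and day 7 on the y axis, both in log2(signal + 16). Red and blue points are the 97 higher and 52 lower genes that were called, and most lie below the dashed line in the upper right or above it in the lower left, since day 7 was the nearer group for 76 and 37 of them.

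The gene with the largest distance was Hoxb1, and Hoxb2, Gbx2 and Irx3 of the same caudal patterning list were called with it. Hoxb1, a homeobox gene of the hindbrain and a direct target of retinoic acid receptors, had signals of 11.9 and 1.79 in ESC, 509.9 and 1544 at day 3 and 54.5 and 75.6 at day 7. Both day 3 arrays were far above all others, the second more so than the first. The day 3 difference was 4.42 ± 0.46 (adjusted p = 0.032), and the distance to day 7 was 3.50, the largest of all 97 genes. Its cluster neighbour Hoxb2 gave 30.7 and 13.9 in ESC, 599 and 1082 at day 3 and 103 and 242 at day 7 (difference 3.34 ± 0.41, adjusted p = 0.0391). Further along the cluster, Hoxb3 did not follow this order: it gave 12.3 and 16.7 in ESC, 253 and 308 at day 3 and 146 and 1025 at day 7, so that the day 7 arrays lay on either side of day 3. Hoxb4 gave 28.7 and 72.0 in ESC, 94.5 and 188 at day 3 and 69.2 and 105 at day 7 (difference 0.91 ± 0.38, adjusted p = 0.356).

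Gbx2 was one of 3 genes called in both pairwise comparisons as well, with Tnfsf11 and Serpinb1a. Against ESC 345 genes were called (1.90%), and against day 7 only 7 (0.0385%), all 7 of which were among the 149 day 3 genes. The 7 calls against day 7 became 0 with a pseudocount of 1, after quantile normalization, with the probe set of highest linear mean, with the replicate block and without any 1 array, and with them the calls of Gbx2, Tnfsf11 and Serpinb1a in that comparison. Gbx2 signals were 491 and 305 in ESC, 1173 and 1707 at day 3 and 102 and 93.3 at day 7. The gene was thus highest at day 3, intermediate in ESC and lowest at day 7, with no overlap between groups. The difference was 2.74 ± 0.28 (adjusted p = 0.032), made up of 1.83 ± 0.32 against ESC (adjusted p = 0.0493) and 3.65 ± 0.32 against day 7 (adjusted p = 0.0495).

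Of 26 measured genes of the midbrain, hindbrain and caudal list, 4 were called higher at day 3 and 0 lower: Hoxb1, Hoxb2, Gbx2 and Irx3. The median difference of the list was 0.74 against 0.03 for all genes tested. Hoxb1 and Gbx2 are among the 4 marker genes of this comparison. All lists were chosen with earlier results of these data known, so their counts are a description. The shares to set beside the called counts of each list are 0.533% higher and 0.286% lower over all genes tested. Irx3, an Iroquois homeobox gene of the neural plate, had 52.0 and 43.6 in ESC, 503 and 568 at day 3 and 455 and 460.1 at day 7. Its day 3 arrays exceeded day 7 by only 0.22, the smallest distance among the 97 genes, so that the call came almost wholly from ESC. Meis2, a homeobox cofactor of Hox proteins, gave 129 and 108 in ESC, 1248 and 1961 at day 3 and 1742 and 2384 at day 7, with day 7 higher than day 3 within each replicate set. Fgf8, the signal of the midbrain-hindbrain organiser, gave 25.6 and 5.82 in ESC, 160.1 and 751 at day 3 and 154 and 56.7 at day 7 (difference 2.67 ± 0.66, adjusted p = 0.137). The day 3 arrays of Fgf8 were themselves far apart, and the first lay close to a day 7 array.

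Retinoic acid genes were the next group, and their regulatory sequences are shown because 1 called member carries a receptor-type repeat next to its start. RefSeq promoter windows (GRCm38.p6; 250 bases before to 50 after a transcript start) were held for 74 of the 97 higher and 35 of the 52 lower genes. They were searched on both strands for a pair of receptor half-sites in the same direction with 5 bases between them, each half-site being AGGTCA or AGTTCA or GGGTCA or GGTTCA. The repeat occurred in a window of 31 of all 27025 genes with one (0.115%). Among the called genes with a window it was found in Rarb and in no other. Below are the 150 bases before the start, 5′ to 3′ on the strand of the gene, with the repeat in capitals, for Rarb (chr14:16575477-16575626, minus strand), for Cyp26a1 (chr19:37697658-37697807, plus strand, the repeat read from the other strand) and for Hoxb1 (chr11:96365608-96365757, plus strand, no such repeat in the window).
Rarb: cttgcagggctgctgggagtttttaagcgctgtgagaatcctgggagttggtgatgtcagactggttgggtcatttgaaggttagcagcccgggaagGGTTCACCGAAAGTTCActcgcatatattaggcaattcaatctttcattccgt
Cyp26a1: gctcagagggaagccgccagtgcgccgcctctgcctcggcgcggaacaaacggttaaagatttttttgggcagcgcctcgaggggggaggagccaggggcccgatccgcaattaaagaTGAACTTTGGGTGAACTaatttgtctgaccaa
Hoxb1: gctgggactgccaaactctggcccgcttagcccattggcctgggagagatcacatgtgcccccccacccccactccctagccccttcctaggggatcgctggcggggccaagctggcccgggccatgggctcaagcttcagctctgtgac
The repeat spans bases 53 to 37 before the start in Rarb and 32 to 16 in Cyp26a1. A match describes letters only, and its absence from the Hoxb1 window says nothing about sites elsewhere.

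The pair with the repeat did not share a time course. Rarb, a retinoic acid receptor whose own promoter is a classical retinoic acid target, had signals of 17.1 and 20.1 in ESC, 109 and 136 at day 3 and 29.9 and 39.5 at day 7. Day 3 stood clear of both other groups (difference 1.73 ± 0.21, adjusted p = 0.038). Cyp26a1, the enzyme that degrades retinoic acid, gave 59.9 and 5.57 in ESC, 22.3 and 105 at day 3 and 66.7 and 545 at day 7. Its arrays within each group differed many times over, and the difference of -0.45 ± 0.91 did not pass the test (adjusted p = 0.894) and turned sign without the first ESC, the first day 3 or the second day 7 array.

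Of 22 measured retinoic acid genes, 4 were called higher at day 3 and 0 lower: Dhrs3, Rarb, Stra8 and Hoxb1. Dhrs3 and Hoxb1 are also among the 4 marker genes, so the count is not separate support. The list's median difference was 0.39, and 8 members met the higher pattern against 1 the lower, beside 17.2% and 14% of all genes. Dhrs3, which reduces retinaldehyde back to retinol, had 21.0 and 14.3 in ESC, 278 and 304 at day 3 and 69.8 and 43.5 at day 7. The day 3 arrays agreed closely and lay well above the rest (difference 2.65 ± 0.24, adjusted p = 0.0305). Stra8, a retinoic acid-induced gene needed for entry into meiosis, gave 237 and 226 in ESC, 1791 and 2579 at day 3 and 838 and 986 at day 7 (difference 2.18 ± 0.23, adjusted p = 0.032). Day 7 minus ESC was 1.90 ± 0.27 for Stra8 (adjusted p = 0.0393) and 1.09 ± 0.27 for Dhrs3 (adjusted p = 0.114), and the difference between the genes was not tested. Cyp26b1, a second degrading enzyme, was brightest at day 7, with 7.25 and 20.0 in ESC, 14.9 and 5.17 at day 3 and 189 and 369 at day 7. Rxrg, a partner receptor, gave 65.3 and 32.7 in ESC, 128 and 115 at day 3 and 39.4 and 75.4 at day 7 (difference 1.04 ± 0.31, adjusted p = 0.206). Nrip1, a corepressor induced by retinoic acid, gave 280.4 and 238 in ESC, 723 and 724 at day 3 and 552 and 721 at day 7, where the second day 7 array reached the day 3 level.

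**Figure D2:**
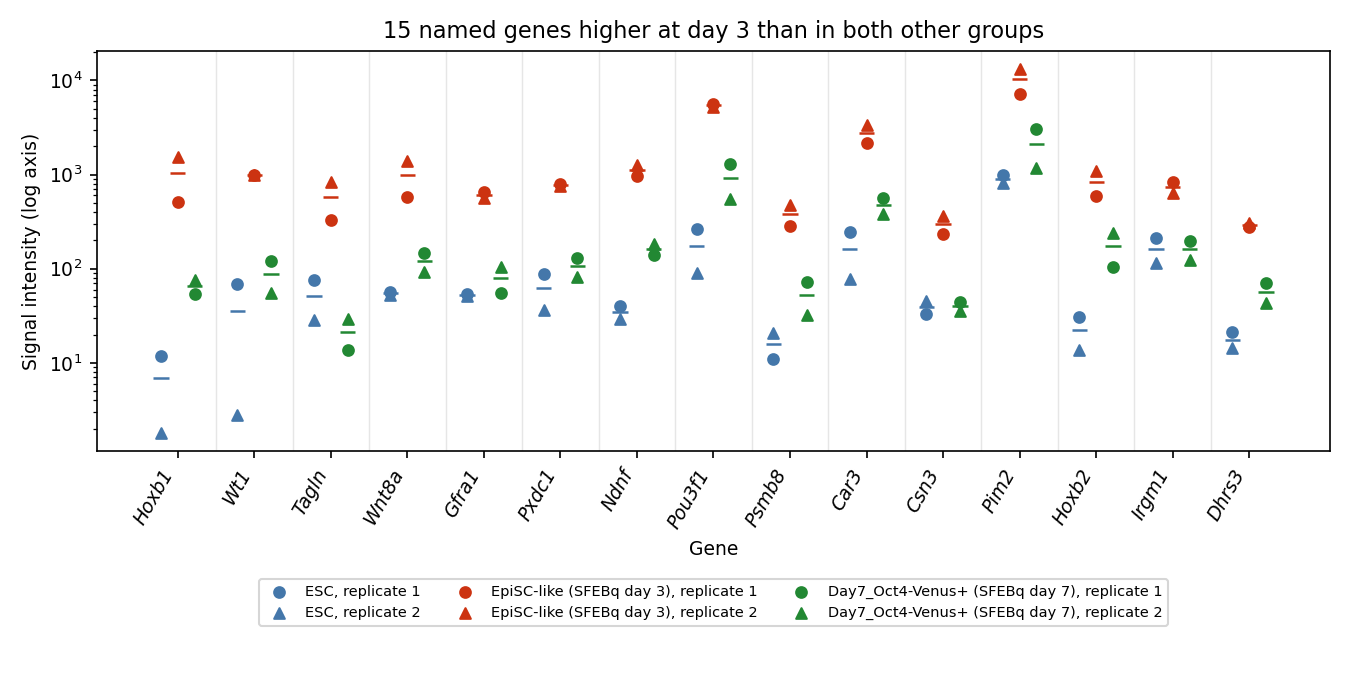
Signal intensity (log axis) of the 15 named higher genes on each of the 6 arrays, circles for replicate 1 and triangles for replicate 2, with a bar at each group mean. The red day 3 points lie above all blue ESC and green day 7 points in every gene. Both day 7 points lie above both ESC points for Hoxb1, Hoxb2, Ndnf, Wnt8a, Gfra1, Pou3f1, Psmb8, Car3, Pim2 and Dhrs3.

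Genes of the formative and primed epiblast had more called members than any other list: 5 of 22 measured genes were higher at day 3 and 0 lower, with a median difference of 1.00. Of all genes tested, 0.533% were called higher and 0.286% lower. The 5 were Fgf5, Pou3f1, Sall2, Sox3 and Pim2. Fgf5, a growth factor gene used as the standard marker of the formative epiblast, had signals of 26.2 and 25.9 in ESC, 1009 and 1243 at day 3 and 409 and 215 at day 7. It was near the bottom of the scale in ESC and still well above ESC at day 7 (day 3 difference 3.31 ± 0.29, adjusted p = 0.0305; day 7 minus ESC 2.90 ± 0.33, adjusted p = 0.0291). For Pou3f1, which encodes a POU-domain factor found in epiblast and in the early neural plate, the signals were 263 and 89.7 in ESC, 5624 and 5212 at day 3 and 1289 and 556 at day 7 (difference 3.82 ± 0.48, adjusted p = 0.0399). Pim2, a serine/threonine kinase that promotes survival, was among the brightest called genes with 985 and 811 in ESC, 7251 and 13236 at day 3 and 3058 and 1165 at day 7. Neither the day 3 nor the day 7 arrays of Pim2 agreed closely, and the gene only just passed (difference 2.90 ± 0.44).

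Sall2, a zinc finger gene, was higher by 2.79 ± 0.31 (adjusted p = 0.032) with 1534 and 1095 at day 3 against 100.0 and 91.1 in ESC and 424 and 222 at day 7. Sox3, a SoxB1 factor of epiblast and neural plate, was higher by 2.02 ± 0.25 (adjusted p = 0.0399). Members that did not pass included the de novo DNA methyltransferases. Dnmt3b gave 10402 and 7148 in ESC, 17818 and 22681 at day 3 and 10850.4 and 7356 at day 7, with day 3 above all other arrays (difference 1.19 ± 0.28, adjusted p = 0.12). Dnmt3a gave 1914 and 583 in ESC, 6728 and 4725 at day 3 and 3178 and 1693 at day 7 (adjusted p = 0.177), and its ESC arrays lay far apart. Its 5 bright probe sets (highest group mean at or above the median over genes) gave differences from 0.441 to 2.06. Otx2, which drives exit from the naive state, was as bright at day 7 (3972 and 4509) as at day 3 (3848 and 3827), against 2002 and 2466 in ESC. Lef1, a Wnt effector, gave 231 and 63.96 in ESC, 2074 and 1864 at day 3 and 1662 and 838 at day 7, and Zic2 gave 453 and 399.8 in ESC, 1469 and 1215 at day 3 and 1350.4 and 757 at day 7. These last genes were low in ESC and similar at day 3 and day 7 on the first arrays, but lower at day 7 on the second.

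The naive pluripotency list ran the other way. Of 21 measured members, 3 were called lower at day 3 (Socs3, Tfcp2l1 and Tcl1) and 1 higher (Gbx2), beside 0.286% and 0.533% of all genes tested. The lower pattern was met by 16 members and the higher by 1, beside 14% and 17.2% of all genes. The median difference was -1.07. Socs3, a feedback inhibitor induced by LIF and Stat3, had signals of 4369.9 and 3849.7 in ESC, 188 and 276 at day 3 and 1024 and 1840.0 at day 7. Day 3 was far below both other groups, and the difference of -3.29 ± 0.30 (adjusted p = 0.0316) was the largest among the 52 lower genes. The 3 bright probe sets of Socs3 ran from -3.29 to -2.43, so this rank rests on the largest of them. Tfcp2l1, a factor that can hold the naive state, gave 4386 and 5672 in ESC, 820.2 and 465 at day 3 and 2349 and 2321 at day 7 (difference -2.44 ± 0.28, adjusted p = 0.0366). Tcl1, a coactivator of Akt, gave 4123 and 6116 in ESC, 925 and 668 at day 3 and 3027 and 2997 at day 7 (difference -2.28 ± 0.25, adjusted p = 0.0334). In all 3 genes the day 7 signal lay between day 3 and ESC.

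Other naive factors held the same order without passing the test. Klf4 gave 8870.0 and 7622 in ESC, 1413 and 450.0 at day 3 and 2307 and 4079.6 at day 7 (difference -2.63 ± 0.47, adjusted p = 0.0756). Nanog gave 9801 and 14048 in ESC, 5549.6 and 5573 at day 3 and 10058 and 11456 at day 7, so that day 3 was the one group apart while ESC and day 7 overlapped (difference -1.01 ± 0.23, adjusted p = 0.112). Differences of -1.47 ± 0.28 for Esrrb, -1.81 ± 0.38 for Tbx3 and -0.997 ± 0.26 for Zfp42 had adjusted p-values of 0.0831, 0.0967 and 0.149. The 3 bright probe sets of Esrrb ran from -1.47 to -0.301, so the value shown is the largest of them. Klf5 differed from these in staying as low at day 7 (1057 and 907) as at day 3 (851 and 768), against 3511 and 7338 in ESC. The part that the Pecam1 gate at day 3 played in these lower values was not tested. The core pluripotency list had 0 of 15 genes called by limma in either direction and a median of 0.08. At an unadjusted p under 0.05 it had 0 genes, beside 1417 higher and 1182 lower of all 18194 genes tested. Sox2 of this list gave 19160.2 and 22030.3 in ESC, 16284 and 15215 at day 3 and 18018 and 22517 at day 7.

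**Figure D3:**
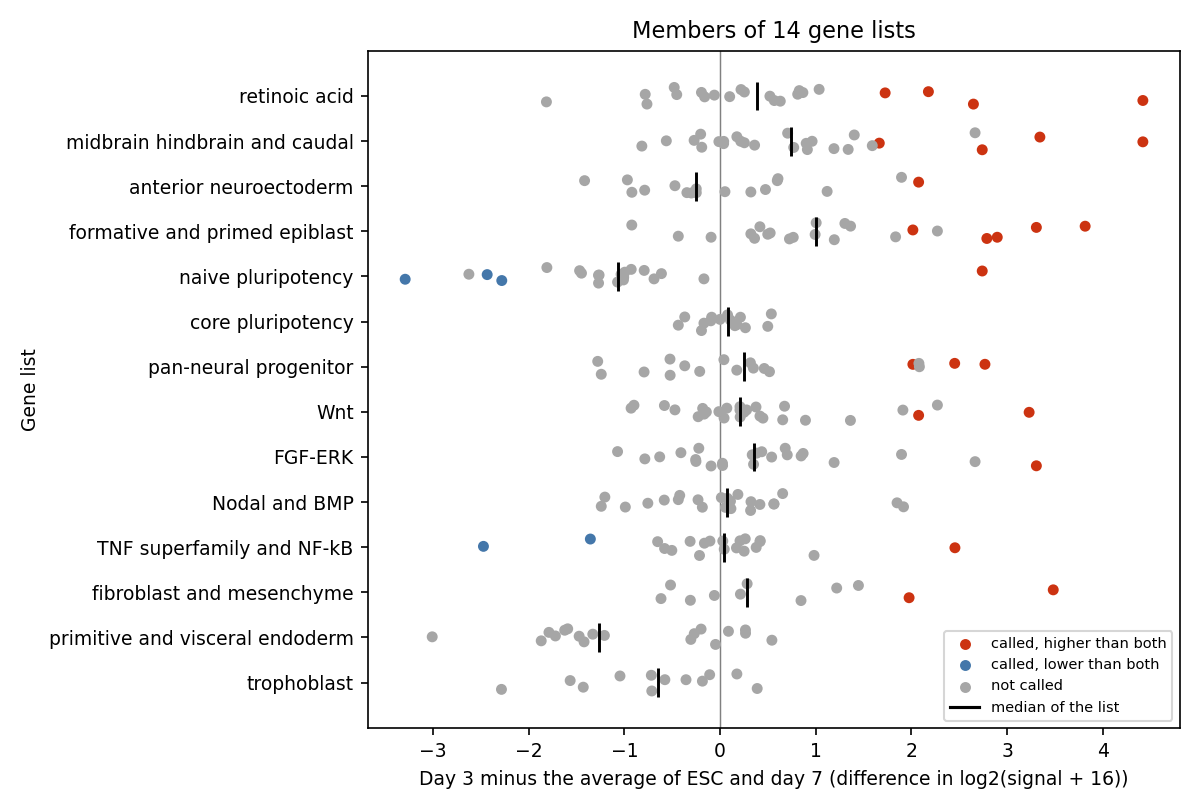
Each point is 1 measured gene of the named list, at its difference between day 3 and the average of ESC and day 7 in log2(signal + 16), with a black bar at the list's median. The formative list has its median at 1.00 with 5 called higher genes in red, and the naive list at -1.07 with 3 called lower genes in blue and Gbx2 in red. A gene in several lists appears in each.

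Neural progenitor genes were called higher in 3 of 18 measured members, Sox1, Sox3 and Prom1, with 0 called lower and a list median of 0.25. Sox1, the earliest specific marker of neuroectoderm, had signals of 11.7 and 5.70 in ESC, 347 and 557 at day 3 and 205 and 135 at day 7. It was all but dark in ESC and stayed up at day 7 (day 3 difference 2.77 ± 0.29, adjusted p = 0.032; day 7 minus ESC 2.90 ± 0.33, adjusted p = 0.0291). Prom1, the membrane protein CD133, gave 376 and 336 in ESC, 3163 and 3465 at day 3 and 1086 and 879 at day 7 (difference 2.45 ± 0.20, adjusted p = 0.0305). Fabp7, a fatty acid binding protein of radial glia, gave 25.9 and 8.49 in ESC, 702 and 797 at day 3 and 666 and 1511 at day 7, and the day 7 arrays enclosed the day 3 values. Olig3, a dorsal neural progenitor factor, gave 26.1 and 54.1 in ESC, 215 and 512 at day 3 and 141 and 83.3 at day 7 (difference 2.08 ± 0.41, adjusted p = 0.0887). Of the 17 anterior neuroectoderm genes, 1 was called higher, Sp8, a zinc finger factor of forebrain and limb (difference 2.08 ± 0.22, adjusted p = 0.032), and the list median was -0.25. Its signals were 19.2 and 11.3 in ESC, 215 and 177 at day 3 and 59.5 and 70.8 at day 7.

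Among signalling genes, the ligand genes Wnt8a, Fgf5 and Tnfsf11 were called. Of 27 Wnt genes, 2 were called higher and 0 lower, Wnt8a and Sp8, with a list median of 0.21. Wnt8a, a ligand of the gastrulating embryo, had 57.3 and 52.9 in ESC, 575 and 1392 at day 3 and 147 and 92.2 at day 7 (difference 3.23 ± 0.38, adjusted p = 0.0372). The receptor gene Fzd2 gave 126 and 70.5 in ESC, 689 and 940.5 at day 3 and 547 and 314 at day 7 (adjusted p = 0.0673), and the pathway's feedback target Axin2 gave 169 and 118 in ESC, 300.2 and 377 at day 3 and 378 and 228 at day 7, with its first day 7 array above both day 3 arrays. Of 23 FGF and ERK genes only Fgf5 was called, and Fgf15 gave 123 and 80.6 in ESC, 525 and 1131 at day 3 and 486 and 281 at day 7 (difference 1.90 ± 0.39, adjusted p = 0.0942). Of 23 Nodal and BMP genes limma called 0, with 2 higher and 4 lower at an unadjusted p under 0.05 and a median of 0.08. Of all 18194 genes tested, 1417 were higher and 1182 lower at that unadjusted p. Lefty1, an inhibitor and target of Nodal, gave 9518 and 15176 at day 3 against 3940.4 and 3176 in ESC and 3844 and 2095 at day 7 (difference 1.92 ± 0.33, adjusted p = 0.0673).

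Tnfsf11, the ligand RANKL known from bone and immune tissue, had signals of 115 and 86.4 in ESC, 509 and 387 at day 3 and 48.8 and 41.1 at day 7. No arrays of different groups overlapped, with ESC between day 3 and day 7. The difference was 2.46 ± 0.23 (adjusted p = 0.0316), with 1.99 ± 0.26 against ESC (adjusted p = 0.0272) and 2.92 ± 0.26 against day 7 (adjusted p = 0.0495). Of 20 TNF superfamily and NF-kB genes this was the 1 called higher, and it is also a marker gene of this comparison. In the same list 2 were called lower, Relb and Bcl3. Relb, a subunit of the noncanonical NF-kB pathway, gave 226 and 198 in ESC, 78.1 and 72.1 at day 3 and 209 and 238 at day 7, with ESC and day 7 alike and day 3 below (difference -1.36 ± 0.20, adjusted p = 0.0478). Bcl3, an atypical inhibitor of NF-kB and also a Stat3 target, gave 762 and 854 in ESC, 42.0 and 31.9 at day 3 and 85.3 and 91.5 at day 7. Its day 3 difference was -2.47 ± 0.20 (adjusted p = 0.0305), but Bcl3 stayed low at day 7, at -2.98 ± 0.23 relative to ESC (adjusted p = 0.0221). Day 3 minus ESC was -3.96 ± 0.23, while day 3 minus day 7 was -0.99 ± 0.23 and did not pass (adjusted p = 0.15). The call of Bcl3 thus came mostly from ESC.

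Several of the 15 genes with the largest distance belonged to none of these lists. Wt1, a zinc finger factor of kidney and gonad, had signals of 69.2 and 2.78 in ESC, 995 and 979 at day 3 and 119.8 and 55.5 at day 7. Its ESC arrays disagreed strongly while the day 3 arrays matched, and the difference was 3.998 ± 0.60 (adjusted p = 0.049). Gfra1, a co-receptor for GDNF, gave 53.3 and 51.1 in ESC, 649 and 563 at day 3 and 54.7 and 104 at day 7 (difference 2.97 ± 0.26, adjusted p = 0.0305). Ndnf, a secreted neurotrophic factor, gave 40.3 and 29.5 in ESC, 975 and 1254 at day 3 and 138 and 183 at day 7 (difference 3.58 ± 0.23, adjusted p = 0.0305). The arrays of each group lay close together for Ndnf, and day 7 remained 1.79 ± 0.27 above ESC (adjusted p = 0.0459). Csn3, the milk protein kappa-casein, was low both in ESC (33.2 and 45.3) and at day 7 (44.8 and 35.4) and gave 233 and 365 at day 3 (difference 2.47 ± 0.25, adjusted p = 0.032). Pxdc1, named for its PX domain, gave 87.7 and 36.8 in ESC, 791 and 754 at day 3 and 129.6 and 82.3 at day 7 (difference 3.07 ± 0.33, adjusted p = 0.032). Car3, a cytosolic carbonic anhydrase, gave 248 and 77.7 in ESC, 2142 and 3329.6 at day 3 and 566 and 385 at day 7 (difference 3.29 ± 0.45, adjusted p = 0.0449). The 2 bright probe sets of Car3 gave differences of 2.055 and 3.29.

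Psmb8 and Irgm1 are known as interferon-inducible genes. Psmb8, a catalytic subunit of the immunoproteasome, had signals of 11.1 and 20.6 in ESC, 285 and 471 at day 3 and 72.2 and 32.5 at day 7 (difference 3.08 ± 0.34, adjusted p = 0.032). Irgm1, an immunity-related GTPase, gave 212 and 116 in ESC, 836 and 639 at day 3 and 196 and 125 at day 7 (difference 2.11 ± 0.31, adjusted p = 0.049). ESC and day 7 overlapped for Irgm1. Its promoter is shown because it holds overlapping pairs of GAAA with 2 bases between, the core of interferon-type response elements, as read on the gene's own strand. In the 150 bases before the start (chr11:48871421-48871570, minus strand), the capitals mark 2 such pairs, between bases 30 and 15 before the start.
Irgm1: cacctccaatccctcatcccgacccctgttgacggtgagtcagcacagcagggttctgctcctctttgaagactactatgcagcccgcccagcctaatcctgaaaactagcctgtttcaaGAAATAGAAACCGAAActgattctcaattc
The pair occurred in a window of 1079 of all 27025 genes with one (3.99%), of 7 of the 74 higher genes (9.46%) and of 1 of the 35 lower genes (2.86%), and the difference between these shares was not tested. The 7 were Dhrs3, Gbp2, Gbp2b, Gfra1, Irgm1, Irx3 and Selenop, and the lower gene was Tgm1.

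Tagln, an actin-binding protein of smooth muscle and fibroblasts, had signals of 75.2 and 28.6 in ESC, 327 and 835 at day 3 and 13.6 and 29.1 at day 7. Its day 3 arrays were above all others but far from each other (difference 3.48 ± 0.46, adjusted p = 0.0434). Of 11 fibroblast and mesenchyme markers, 2 were called higher, Tagln and Col1a2, and 0 lower. The list's median difference was 0.28, beside 0.03 over all genes tested. With no test applied, 5 members lay above both other groups in each replicate set and 2 (Thy1 and Postn) lay below, beside 17.2% and 14% of all genes. Col1a2, a chain of type I collagen, gave 27.3 and 67.8 in ESC, 233 and 218 at day 3 and 49.7 and 43.4 at day 7 (difference 1.98 ± 0.30, adjusted p = 0.049). Acta2, smooth muscle actin, gave 256 and 211 in ESC, 453 and 811 at day 3 and 195 and 193 at day 7 (difference 1.45 ± 0.28, adjusted p = 0.0827), and Dcn was dim throughout with 3.88 and 42.1 in ESC, 42.3 and 79.0 at day 3 and 16.1 and 12.2 at day 7. The summed signal of the list was 725 to 792 in ESC, 1440 to 2320 at day 3 and 775 to 932 at day 7. The part that other cells in the sort played in these values was not tested.

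**Figure D4:**
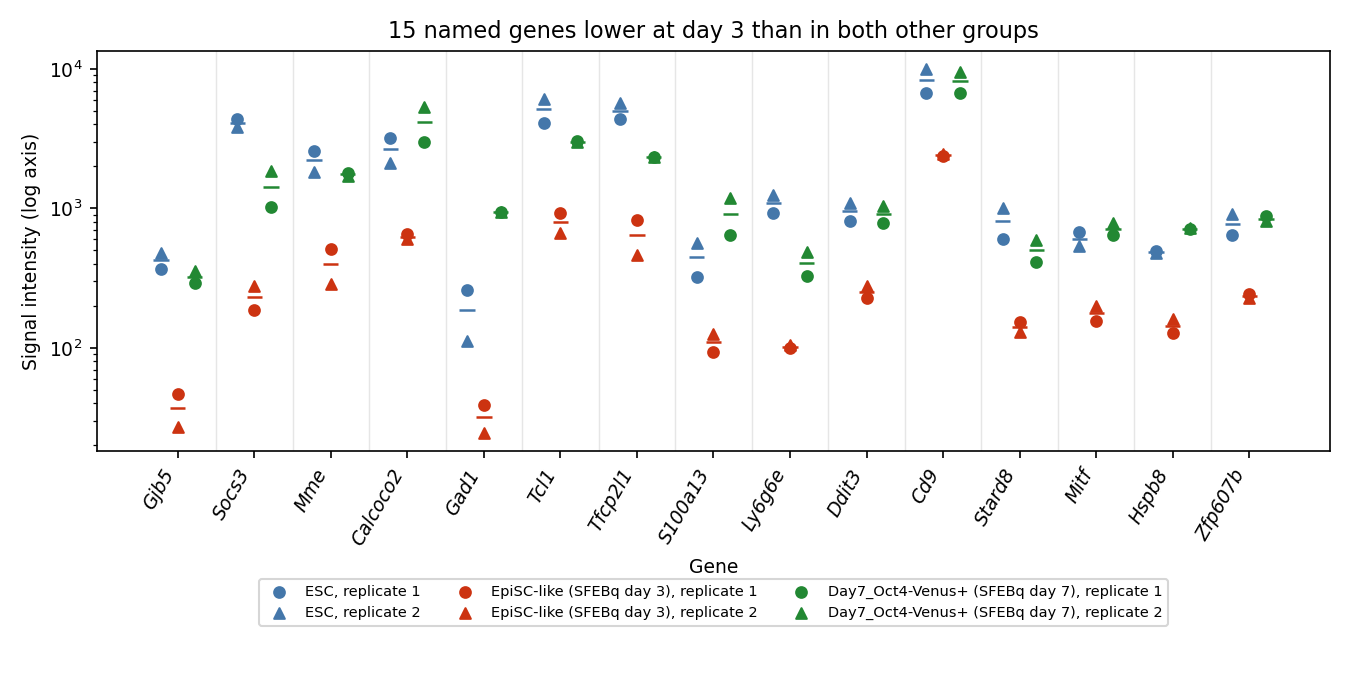
Signal intensity (log axis) of the 15 named lower genes on each of the 6 arrays, circles for replicate 1 and triangles for replicate 2, with a bar at each group mean. The red day 3 points lie below all other points in every gene; for Cd9, Ddit3, Mitf, Calcoco2 and Zfp607b the ESC and day 7 points overlap.

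The 15 named lower genes included Gjb5, Mme, Cd9 and Ly6g6e, which encode membrane or cell surface proteins. Gjb5, the gap junction protein connexin 31.1, had 369 and 479 in ESC, 46.7 and 27.1 at day 3 and 293 and 356 at day 7, a dip of -2.89 ± 0.25 (adjusted p = 0.0305). Mme, the surface peptidase neprilysin, gave 2592 and 1831 in ESC, 508 and 287 at day 3 and 1805 and 1710.5 at day 7 (difference -2.31 ± 0.29, adjusted p = 0.0399). Cd9, a tetraspanin of the stem cell surface, gave 6716 and 9989 in ESC, 2383 and 2449.6 at day 3 and 6721 and 9542 at day 7. Cd9 was nearly the same in ESC and at day 7, whose arrays overlapped, and was lower at day 3 by more than the spread in either group (difference -1.74 ± 0.26, adjusted p = 0.049). Ly6g6e, a GPI-anchored protein, gave 925 and 1252 in ESC, 99.1 and 105 at day 3 and 327 and 489 at day 7 (difference -2.51 ± 0.25, adjusted p = 0.032).

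Stress and transcription genes were also among the 15. Ddit3, the stress factor CHOP, had 808 and 1093 in ESC, 227 and 278 at day 3 and 787 and 1034 at day 7 (difference -1.81 ± 0.24, adjusted p = 0.0434). Hspb8, a small heat shock protein, gave 498 and 478 in ESC, 128 and 160.4 at day 3 and 714 and 719 at day 7 (difference -1.93 ± 0.20, adjusted p = 0.032). The 3 bright probe sets of Hspb8 ran from -1.93 to -0.896. Mitf, a basic helix-loop-helix factor of pigment cells and lysosomal genes, gave 676 and 537 in ESC, 156 and 198 at day 3 and 642 and 788 at day 7 (difference -1.80 ± 0.23, adjusted p = 0.0399). ESC and day 7 overlapped for Ddit3 and Mitf, while day 7 was above ESC for Hspb8, and day 3 stood below both in all 3 genes. Calcoco2, an autophagy receptor, gave 3211 and 2109 in ESC, 650.2 and 603 at day 3 and 2975 and 5359 at day 7, and S100a13, a calcium-binding protein, gave 322 and 569 in ESC, 94.0 and 127 at day 3 and 646 and 1181 at day 7. Their differences were -2.34 ± 0.31 and -2.33 ± 0.35 (adjusted p = 0.0434 and 0.049). Stard8 and the zinc finger gene Zfp607b gave differences of -2.03 ± 0.29 and -1.71 ± 0.22 (adjusted p = 0.0472 and 0.0434).

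Gad1 and Ndrg1 were called lower at day 3 and were highest at day 7. Gad1, the enzyme that makes the transmitter GABA and the 1 called gene of 10 neuron markers, had 259.9 and 112 in ESC, 39.3 and 24.5 at day 3 and 937 and 939.7 at day 7. Day 7 exceeded day 3 by more than any pair of replicates differed, with -4.33 ± 0.39 for day 3 minus day 7 (adjusted p = 0.0495). Ndrg1, a hypoxia- and stress-responsive gene and the 1 called gene of 19 glycolysis and hypoxia genes, gave 389.9 and 259 in ESC, 293 and 174 at day 3 and 3144 and 4037 at day 7. Day 3 and ESC overlapped for Ndrg1, so this call came from day 7 (-3.88 ± 0.34, adjusted p = 0.0495).

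Endoderm markers differed between the day 7 arrays. The summed signal of 18 primitive and visceral endoderm markers was 7849 to 8502 in ESC, 5315 to 6250 at day 3, and 9349 and 31660 on the day 7 arrays. Limma called 0 of the 18, although the list median was -1.27 and 8 were lower at an unadjusted p under 0.05, with 1 higher. Beside this count and those of the lists below, 1182 of all 18194 genes tested were lower and 1417 higher at that unadjusted p. Lama1, a basement membrane laminin, gave 861 and 1365 in ESC, 173 and 80.0 at day 3 and 453 and 2415 at day 7 (difference -3.01 ± 0.66, adjusted p = 0.106). Col4a1 gave 541 and 380.5 in ESC, 418 and 322 at day 3 and 1853 and 7417 at day 7, and the transport protein Ttr gave 9.31 and 24.7 in ESC, 1.48 and 23.8 at day 3 and 89.6 and 779 at day 7. In both, the second day 7 array was far above the first. Sox17 (111 and 751 at day 7) and Sparc (2920.3 and 8609.9) were split in the same way. Of 12 trophoblast markers limma called 0, with 6 lower at an unadjusted p under 0.05 and a median of -0.65. Signals were, for Ascl2, 194 and 252 in ESC, 57.2 and 16.04 at day 3 and 242 and 198 at day 7 (adjusted p = 0.0534) and, for Krt18, 513 and 563 in ESC, 181 and 334 at day 3 and 703 and 1651 at day 7. The part of these cell types in the lower genes was not tested. In the remaining 11 lists, which cover 156 measured entries on streak, germ cell, neural crest, blood, proneural, Notch, imprinted, p53, cell cycle, cholesterol and dissociation genes, limma called 0 genes (26 higher and 14 lower at an unadjusted p under 0.05), and list medians ran from -0.22 to 0.31. The summed signal of 19 immediate early and dissociation genes, which bear on the unequal handling, was 35951 to 46299 in ESC, 30222 to 34263 at day 3 and 35669 to 39913 at day 7.

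Whether a day 3 gene came back to its ESC level is a separate question, because the contrast used for the calls leaves out the difference between day 7 and ESC. Of the 97 higher genes, 50 were within 1 of ESC at day 7, 44 remained at least 1 above and 3 at least 1 below (median 0.85). Over all genes the shares were 90.2% within 1, 6.8% above and 3.1% below. In the fit, 15 of the 97 differed between day 7 and ESC, 13 upward and 2 downward, where 1.04% of all genes were called. Of the 52 lower genes, 32 were within 1 of ESC, 7 above and 13 below (median -0.41), with 2 called upward and 4 downward. The requirement that day 3 be outside both groups limits these differences, so the shares are a description.

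Single genes differed in where day 7 lay, and Cachd1, Hes6, Stk39, Myrf, Banf2, Tgm1, Lmna and Gadd45b were chosen after their values were seen. Irgm1, Csn3 and Cd9 lay near their ESC levels at day 7, with day 7 minus ESC of -0.01 ± 0.36, 0.03 ± 0.29 and -0.03 ± 0.30. Genes that stayed up included Cachd1, Hes6 and Stk39, with day 7 minus ESC of 2.70 ± 0.30, 2.32 ± 0.25 and 2.58 ± 0.33 (adjusted p = 0.0291, 0.0291 and 0.0362). Hes6, an antagonist of Hes1 in neurogenesis, had signals of 234 and 179.9 in ESC, 2336 and 2129 at day 3 and 1193 and 988 at day 7. The 3 higher genes whose day 7 mean was at least 1 below ESC were Gbx2, Myrf and Banf2. Myrf, a transcription factor known for myelin genes, gave 679.5 and 911 in ESC, 1674 and 2147 at day 3 and 242 and 228 at day 7, ending -1.68 ± 0.26 relative to ESC (adjusted p = 0.0495). Among the lower genes, Tgm1, a transglutaminase, and Lmna, the gene of lamin A and C, stayed down with -3.44 ± 0.25 and -2.59 ± 0.30 (adjusted p = 0.0221 and 0.0291). Day 3 minus day 7 was only -0.595 ± 0.25 for Tgm1 and -0.47 ± 0.30 for Lmna (adjusted p = 0.368 and 0.546). The calls of Tgm1 and Lmna thus came mostly from ESC. Gadd45b, a stress-induced gene, gave 612 and 661 in ESC, 437 and 407 at day 3 and 2866 and 2517 at day 7. Its day 3 difference from ESC was -0.58 ± 0.22, which did not pass (adjusted p = 0.274), while that from day 7 was -2.63 ± 0.22 (adjusted p = 0.0495).

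**Figure D5:**
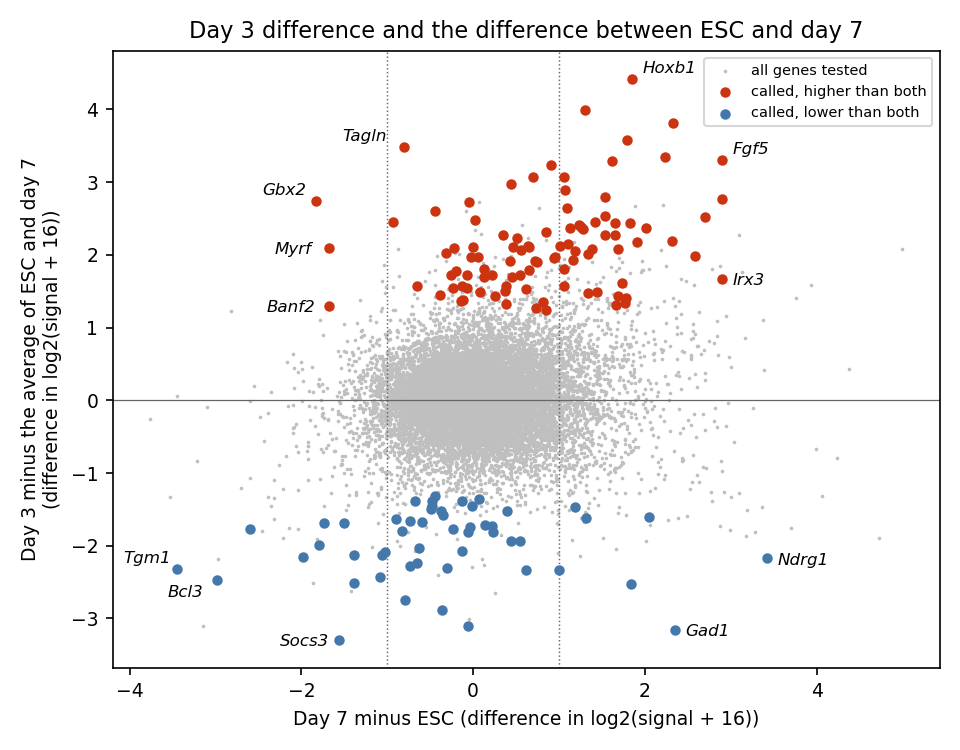
Each point is 1 gene, with day 7 minus ESC on the x axis and day 3 minus the average of both on the y axis, in log2(signal + 16), and dotted lines at -1 and 1. Of the 97 red genes 44 lie to the right of the dotted lines and 3 (Gbx2, Myrf and Banf2) to the left, and the blue genes spread from Tgm1 and Bcl3 on the left to Gad1 and Ndrg1 on the right.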

How the data were processed

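RNA of 6 sorted samples was hybridised to Affymetrix 3′ arrays. The deposited values are linear signal intensity per probe set, made with Affymetrix Expression Console (version 1) per the submitters' processing notes; its algorithm and the genome build are not given in the sources used here. Of 45101 probe sets, 64 controls were left out, 34945 had 1 gene in the platform annotation, 932 had several and 9160 others had none. The probe set with the highest mean log2 value stood for each of 18194 genes. Symbols were checked by gene identifier against RefSeq (34741 probe sets matched, 0 changed).

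Group means were fitted on log2(signal + 16) with limma 3.58.1 in R 4.3.3 (lmFit, contrasts, eBayes; Benjamini-Hochberg over all genes), and every adjusted p and SE comes from this fit, with 3 residual degrees of freedom. The fit was tested on simulated data. Named are the 4 marker genes Gbx2, Hoxb1, Dhrs3 and Tnfsf11, Pou5f1 and Pecam1, the 15 higher and 15 lower genes with the largest distance to the nearer group whose highest group mean was at or above the median over genes (clone names left out), every called member of 19 pathway and 8 cell type lists (489 entries, 29 not measured), and others as values. Members and lists were chosen with earlier results of these data known. Pseudocount, scaling, brightness filter, probe set choice, variance model, replicate block and each array left out were tried as alternatives.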

Additional observations from a re-analysis of the deposited data

How the results depend on the processing

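The counts of day 3 genes depend on the settings. In place of 97 higher and 52 lower genes, limma called 253 and 144 with a pseudocount of 64, 0 and 0 with a pseudocount of 1, 217 and 133 over genes at or above percentile 25 of mean signal, 289 and 239 at or above percentile 50, 274 and 195 with a trended, robust variance, 49 and 27 with the mean of all probe sets of a gene, and 2 and 1 where both pairwise comparisons had to pass. Median centring (99 and 66), quantile normalization (70 and 47) and the probe set with the highest linear mean (100 and 52, chosen after seeing the data) stayed within 1.5 times. Leaving out 1 array gave 0 in both directions. The 97 and 52 genes kept their direction in every one of these fits that tested them, but their choice on these same arrays favours that. At the pseudocount of 1 the smallest adjusted p was 0.118. There 1084 higher and 943 lower genes met the pattern at an unadjusted p under 0.05, beside 1240 and 1014 in the main fit.

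With the replicate number as a block the counts were 0 and 0 (smallest adjusted p 0.0676; 1433 and 1201 genes with the pattern at an unadjusted p under 0.05). Same-numbered arrays deviated together with correlations of 0.283 between ESC and day 3, 0.079 between ESC and day 7 and 0.097 between day 3 and day 7. Since 2 of these are not above 0.1 and no label ties the numbers together, the arrays were not treated as paired in the fit. The rule that day 3 lie outside both other groups within each replicate set did compare same-numbered arrays. Signal range and hybridization controls nevertheless differed between the replicate sets, and low poly-A controls were shared by the second ESC and second day 3 arrays alone. The same alternatives were then tried on the pairwise counts, which was decided after seeing the data. Against ESC, 345 calls became 672 with a pseudocount of 64, 0 with 1, 653 and 771 with the brightness filters, 770 with the trended variance, 0 with the replicate block and 0 to 63 without 1 array. Against day 7, 7 calls became 206, 0, 138, 337, 238 and 0 in the same order, 0 without any 1 array, 0 after quantile normalization and 0 with the probe set of highest linear mean.

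Leaving out 1 array moved the Pou5f1 difference between -0.53 and 0.14 and the Cyp26a1 difference between -1.29 and 0.38. The number of arrays limits the precision of every value.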

Other observations

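Interferon-inducible genes beyond Psmb8 and Irgm1 were also among the higher genes, and were picked out after their values were seen. Gbp2, a guanylate-binding protein gene, had signals of 53.6 and 26.1 in ESC, 435 and 359 at day 3 and 137 and 75.5 at day 7. Its neighbour Gbp2b had 50.2 and 41.8 in ESC, 407 and 328 at day 3 and 119 and 98.9 at day 7. Their differences were 2.36 ± 0.32 and 2.12 ± 0.21 (limma, adjusted p = 0.0434 and 0.032). As close paralogues they may share probe signal, so they count as uncertain. Rtp4, a chaperone induced by interferon, gave 4.03 and 1.35 in ESC, 108 and 109 at day 3 and 17.5 and 17.6 at day 7 (difference 2.32 ± 0.19, adjusted p = 0.0305). Psmb10 and Psmb9, the other catalytic subunits of the immunoproteasome, did not pass (adjusted p = 0.0673 and 0.175). Psmb10 gave 601 and 456 in ESC, 1365 and 2278 at day 3 and 641 and 465 at day 7, and Psmb9 gave 122 and 91.8 in ESC, 196 and 202 at day 3 and 112 and 125 at day 7. Irf1 gave 769 and 749 in ESC, 2058 and 1869 at day 3 and 1425 and 935 at day 7 (adjusted p = 0.112), and Gbp3 36.1 and 28.6 in ESC, 456 and 171 at day 3 and 88.1 and 56.2 at day 7 (adjusted p = 0.0744). Ifit3, a standard type I interferon target, lay the other way with 52.3 and 32.5 in ESC, 6.30 and 12.3 at day 3 and 31.6 and 69.9 at day 7 (difference -1.27 ± 0.31, adjusted p = 0.136).

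The X chromosome held 11 of the 97 higher genes (11.3%) and 2 of the 52 lower genes (3.85%), beside 3.39% of all genes tested. The 11 were Cldn2, Fndc3c1, Gabra3, H2bfm, Hs6st2, Med14, Pim2, Sh3kbp1, Sox3, Spin2c and Xist. Xist, the RNA that coats an inactive X chromosome, gave 509 and 387 in ESC, 1166 and 1002 at day 3 and 347 and 323 at day 7 (difference 1.45 ± 0.21, adjusted p = 0.049). Med14, a Mediator subunit, gave 1111 and 722 in ESC, 2872 and 2938 at day 3 and 895 and 678 at day 7 (difference 1.78 ± 0.25, adjusted p = 0.0475). For genes whose mean in their brightest stage reached the median of those tested, the median difference was 0.037 for X-linked and 0.033 for other genes.

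In the RefSeq order of protein-coding genes, 4 pairs of direct neighbours were both called higher: Hoxb2 and Hoxb1, Slc22a23 and Pxdc1, Car3 and Car2, and Gbp2b and Gbp2. Car2, a carbonic anhydrase, gave 2505 and 2527 in ESC, 9250.1 and 17665 at day 3 and 3916 and 3071 at day 7 (difference 2.11 ± 0.30, adjusted p = 0.0475). Slc22a23, a transporter gene, gave 67.4 and 59.9 in ESC, 235 and 239 at day 3 and 132 and 123 at day 7 (difference 1.25 ± 0.19, adjusted p = 0.0493).

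Some genes with large distances were too dim for the named set. Myf5, a muscle regulatory factor, was close to 0 in ESC (5.32 and 0.356) and at day 7 (0.734 and 3.52) and gave 120.0 and 92.8 at day 3 (difference 2.73 ± 0.23, adjusted p = 0.0305). Serpinb1a, a protease inhibitor, was the reverse, at 2.20 and 3.32 at day 3 against 181 and 122 in ESC and 121 and 164 at day 7 (difference -3.10 ± 0.24, adjusted p = 0.0305). Kinases of 1 family moved in opposite directions, Pim2 by 2.90 and Pim3 by -1.63 (adjusted p = 0.049 for Pim3, with signals of 6597 and 10216 in ESC, 1845 and 2029 at day 3 and 4623 and 4172 at day 7).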
